A study of Mus musculus with 2 samples.

Results

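The genes described here are 10 members of the BCL2 family, which decides whether a cell keeps or loses the integrity of its mitochondria. They are the survival genes Mcl1, Bcl2l1 and Bcl2, the effector genes Bak1 and Bax, and the BH3-only genes Bbc3, Bad, Bcl2l11, Bid and Pmaip1. They were chosen by name, and each matched a row of the gene tables through its GENCODE identifier, giving 10 of 43346 Ensembl genes. Polyadenylated RNA of mouse leukemia stem cells was sequenced with paired ends in 2 libraries, biological replicates 1 and 2 of a single group. The labels describe the cells as infected by Friend virus, an erythroleukemia-causing mouse retrovirus, and as CD34+, CD133+, Kit+ and Sca1+. Their source was adult mice, males and females pooled, aged 10 to 12 weeks and of a strain carrying the sensitive Fv2 allele. There was no second condition to set them against, so no p-value was computed and each level is shown for both libraries.

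The survival proteins hold the effectors BAK and BAX in check at the outer mitochondrial membrane. BH3-only proteins answer stress signals by occupying the groove of the survival proteins or by engaging the effectors, which then form pores that release cytochrome c. In red cell precursors BCL-XL, the product of Bcl2l1, is known for keeping maturing cells alive under erythropoietin, and PUMA, the product of Bbc3, is a classical target of p53.

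The family shares a short helix, the BH3 region, through which death-promoting members dock into the groove of survival members. The coding stretches for it in 9 members are printed first because they are the feature that groups these genes. Each runs 5′ to 3′ on the coding strand, and the capitals mark the 6 codons that begin with leucine and end with aspartate. They were read from GENCODE transcripts of GRCm38.
Mcl1: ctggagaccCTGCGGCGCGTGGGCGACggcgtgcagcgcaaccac
Bcl2l1: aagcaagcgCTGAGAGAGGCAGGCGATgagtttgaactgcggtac
Bcl2: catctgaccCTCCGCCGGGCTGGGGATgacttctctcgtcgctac
Bak1: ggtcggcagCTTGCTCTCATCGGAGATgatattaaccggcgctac
Bax: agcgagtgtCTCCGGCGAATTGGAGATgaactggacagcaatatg
Bbc3: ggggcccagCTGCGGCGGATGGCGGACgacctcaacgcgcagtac
Bad: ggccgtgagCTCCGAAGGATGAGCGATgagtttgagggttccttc
Bcl2l11: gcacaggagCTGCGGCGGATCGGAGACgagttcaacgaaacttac
Bid: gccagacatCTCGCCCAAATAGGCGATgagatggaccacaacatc

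All 9 stretches are exonic and coding. On the plus strand they lie at chr3:95659427-95659471 (Mcl1), chr7:16313764-16313808 (Bbc3), chr2:128147141-128147185 (Bcl2l11) and chr19:6950783-6950827 (Bad). On the minus strand they lie at chr1:106712566-106712610 (Bcl2), chr2:152829688-152829732 (Bcl2l1), chr7:45465988-45466032 (Bax), chr17:27022522-27022566 (Bak1) and chr6:120897280-120897324 (Bid). Each was found once in the coding sequence searched. In Mcl1 the capitals began at codon 194 of 331, and in Bbc3 at codon 141 of 193. In Bak1 they began at codon 76 of 209. The positions matter below, because several abundant annotated transcripts differed in whether they reached this region.

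The 10 genes lay on 8 chromosomes of mm10. Among the survival genes, Mcl1 (ENSMUSG00000038612.12) was at chr3:95658788-95663176, Bcl2l1 (ENSMUSG00000007659.14) at chr2:152780668-152831728 and Bcl2 (ENSMUSG00000057329.7) at chr1:106538178-106714274. The effector Bak1 (ENSMUSG00000057789.9) was at chr17:27019810-27029009 and Bax (ENSMUSG00000003873.10) at chr7:45461697-45466898. The BH3-only genes were Bbc3 (ENSMUSG00000002083.8, chr7:16308393-16318205), Bad (ENSMUSG00000024959.9, chr19:6941861-6951899), Bcl2l11 (ENSMUSG00000027381.12, chr2:128126038-128162547), Bid (ENSMUSG00000004446.8, chr6:120891930-120916853) and Pmaip1 (ENSMUSG00000024521.7, chromosome 18).

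The libraries summed to 23575315 expected counts (estimated fragments) in replicate 1 and 22541765 in replicate 2. The labels give separate biosamples from a shared donor record, so the spread between the libraries may be partly technical. Transcripts of the 4 sort markers were scarce, with a summed level of 5.12 TPM in replicate 1 and 3.48 TPM in replicate 2, and 2 of the 4 reached 1 TPM in both. Prom1, which encodes CD133, had 3 counts in replicate 1 and 0 in replicate 2. All 5 erythroid markers were detected, and they summed to 37824 TPM in replicate 1 and 20136 TPM in replicate 2, mostly beta-globin. Macrophage markers summed to 838 TPM in replicate 1 and 1221 TPM in replicate 2 (4 of 5 detected in both), and B lineage markers to 692 TPM and 280 TPM (4 of 5). The macrophage sum was carried by the complement genes C1qa, C1qb and C1qc, each higher in replicate 2. Adgre1, with 3.67 TPM in replicate 1 and 0.78 TPM in replicate 2, and Csf1r, with 16.7 TPM and 7.55 TPM, went the other way. In bulk RNA, fewer cells of a type and less RNA per cell cannot be told apart, and the part of these cells in the levels below was not tested.

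Death genes and survival genes were both abundant. Of the 10 members, 9 reached 1 TPM (the deposited length-normalised level) in both libraries, against 41.6% of 21474 protein-coding genes. The median of the members' mean levels was 94.8 TPM, against 0.55 TPM for all protein-coding genes. The exception was Pmaip1.

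Among the survival genes, Mcl1, which encodes a short-lived survival protein, had 278 TPM in replicate 1 and 566 TPM in replicate 2 (422 ± 204, SD, n = 2). Bcl2l1, which encodes BCL-XL, had 93.5 TPM in replicate 1 and 163 TPM in replicate 2 (128 ± 49.3). Bcl2, the founding member, had 2.60 TPM in replicate 1 and 2.77 TPM in replicate 2 (2.69 ± 0.120). Mcl1 and Bcl2l1 were thus far above Bcl2 in each library, and both were higher in replicate 2. Mcl1 stood above 96.9% of the protein-coding genes with any TPM in replicate 1 and above 98.7% in replicate 2, whereas Bcl2 stood above 40.0% and 46.6% of them.

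The effectors, whose proteins make the pore, had high levels too. Bak1 had 254 TPM in replicate 1 and 118 TPM in replicate 2 (186 ± 96.0). Bax had 156 TPM in replicate 1 and 74.5 TPM in replicate 2 (115 ± 57.8). Both were higher in replicate 1, the opposite of Mcl1 and Bcl2l1. Their expected counts were 9169 and 4355 for Bak1 and 2272 and 1077 for Bax in replicates 1 and 2.

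The BH3-only genes covered the widest range. Bbc3, which encodes PUMA, had 194 TPM in replicate 1 and 555 TPM in replicate 2 (375 ± 255), with 648 protein-coding genes above it in replicate 1 and 189 in replicate 2. Bad, whose protein is held inactive by phosphorylation under growth factor signals, had 69.3 TPM in replicate 1 and 79.3 TPM in replicate 2 (74.3 ± 7.12). Bcl2l11, which encodes BIM, had 82.5 TPM in replicate 1 and 37.6 TPM in replicate 2 (60.1 ± 31.7). Bbc3 was the BH3-only gene with the highest level in each library, and it was higher in replicate 2, while Bcl2l11 was higher in replicate 1.

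Bid, whose protein links death receptors to mitochondria after caspase-8 cuts it, had 13.1 TPM in replicate 1 and 6.32 TPM in replicate 2 (9.70 ± 4.77). Pmaip1, which encodes the MCL1-binding protein NOXA, had 0.32 TPM in replicate 1 and 0.52 TPM in replicate 2 (0.420 ± 0.141), from 16 and 26 counts. The exact Poisson 95% intervals of these Pmaip1 levels, which cover counting error only, ran over 0.183 to 0.520 TPM in replicate 1 and 0.340 to 0.762 TPM in replicate 2. They overlapped, which does not show equal levels. The log2 ratio of replicate 1 over replicate 2, described below, had a wholly negative counting interval for Pmaip1, -2.17 to -0.22. Pmaip1 and Bbc3 are both known p53 targets, and these cells had 125 TPM of Trp53 in replicate 1 and 114 TPM in replicate 2. A link between these levels was not tested.

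**Figure D1:**
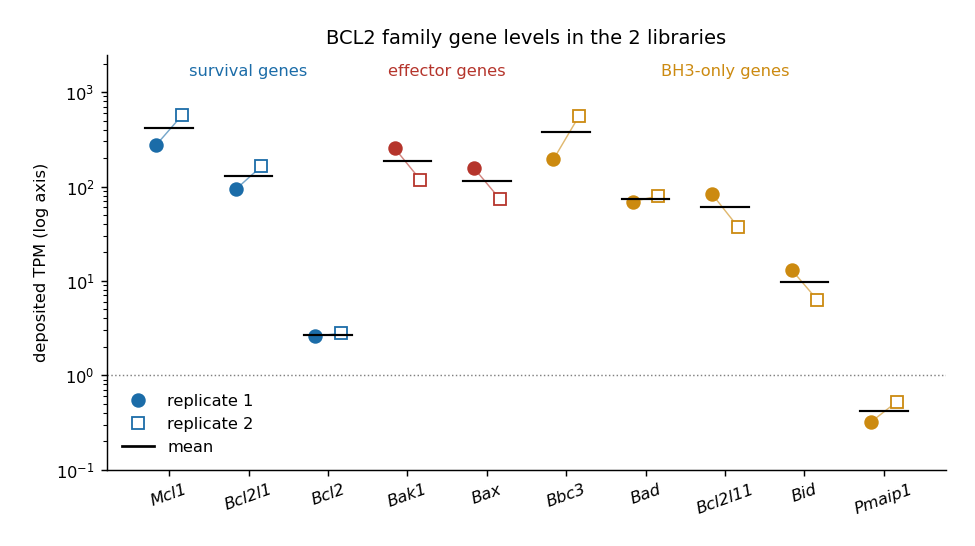
Deposited TPM on a log axis for each family gene, grouped by role, with filled circles for replicate 1, open squares for replicate 2 and a bar at their mean. Both effectors sit higher in replicate 1, Mcl1, Bcl2l1 and Bbc3 sit higher in replicate 2, and Pmaip1 alone lies below the dotted line at 1 TPM.

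Ordered by mean TPM, the genes ran Mcl1, Bbc3, Bak1, Bcl2l1, Bax, Bad, Bcl2l11, Bid, Bcl2 and Pmaip1. From Mcl1 down to Bcl2l11 each gene's range over the libraries overlapped that of its neighbour. Compared within each library, Mcl1 was above Bbc3 in both, and every other neighbouring pair down to Bcl2l11 changed its order between the libraries. Over some larger steps the ranges were separate. The range of Mcl1 lay wholly above that of each gene but Bbc3, and the range of Bbc3 above that of Bcl2l1 and of all genes after it. The ranges of Bak1 and Bcl2l1 lay above that of Bad and of all genes after it. The ranges of Bak1 and Bax overlapped, as did those of Bax and Bcl2l11. Within each library, however, Bak1 was above Bax and Bax above Bcl2l11. The steps from Bcl2l11 to Bid, from Bid to Bcl2 and from Bcl2 to Pmaip1 had no overlap.

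The deposited gene TPM depends on which annotated transcripts received the counts, since a count on a short transcript adds more TPM than the same count on a long transcript. This touched the members with the highest TPM. Of the 8 members with more than 1 transcript, the transcript leading by TPM was not a principal coding transcript of the annotation in 5 (62.5%) in replicate 1 and 6 (75.0%) in replicate 2. Over all protein-coding genes with more than 1 transcript the same shares were 48.7% of 8160 genes and 53.3% of 7595 genes.

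Mcl1 had 2 annotated transcripts. Mcl1-202, an 858-base model, made up 88.1% of Mcl1 TPM in replicate 1 and 93.9% in replicate 2. Mcl1-201, the full-length model of 3485 bases, held 11.9% and 6.12%. By expected counts the shorter model took 61.6% in replicate 1 and 76.7% in replicate 2. Mcl1-202 led by either measure in both libraries, with a larger share in replicate 2. This model runs only from 95658857 to 95660823, inside the span of Mcl1-201 (95658788 to 95663176), and lacks its outer ends. Its share is thus that of an annotated model, and whether reads crossed its extra junction was not tested. Mcl1-202 codes for 285 codons against 331, because in the annotation a segment of 138 bases (46 codons) of the first exon, chr3:95658909-95659046, is spliced out. The segment lies upstream of the BH3 codons, which both models keep. It is printed in capitals with 20 bases on either side as in Mcl1-201, and below it the joined ends as in Mcl1-202.
Mcl1-201: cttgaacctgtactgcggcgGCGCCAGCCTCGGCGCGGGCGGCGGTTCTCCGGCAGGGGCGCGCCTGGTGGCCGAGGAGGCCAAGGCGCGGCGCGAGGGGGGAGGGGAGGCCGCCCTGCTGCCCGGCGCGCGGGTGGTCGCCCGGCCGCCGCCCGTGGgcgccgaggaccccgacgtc
Mcl1-202: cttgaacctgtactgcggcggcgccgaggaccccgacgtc

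Bak1 also put most of its counts on a model that differs in coding content. Bak1-201 made up 84.0% of Bak1 TPM in replicate 1 and 95.5% in replicate 2, against 11.9% and 4.50% for Bak1-202, which codes for the full protein of 209 codons. Bak1-201 contains an extra exon of 20 bases at chr17:27021663-27021682, and the annotation gives it 151 codons and the type nonsense-mediated decay, a pathway that degrades RNAs with early stops. An exon of this kind was described in mouse neurons, where its product was named N-BAK. The models also differ at the start, with a first exon of 168 bases in Bak1-201 and 599 bases in Bak1-202, so reads over either difference can set the shares. Which of these differences carried the reads was not tested. The exon is in capitals with 20 bases on either side, followed by the joined ends of Bak1-202.
Bak1-201: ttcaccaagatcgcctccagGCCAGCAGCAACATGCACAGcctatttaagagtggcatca
Bak1-202: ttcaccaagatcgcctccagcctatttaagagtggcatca

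For Bcl2l1 the counts fell almost wholly on a single model. Bcl2l1-201 held 98.0% of the TPM in replicate 1 and 99.7% in replicate 2, and Bcl2l1-202, which codes for the same 233 codons from another first exon, 1.26% and 0%. Bcl2l1-203 held 0.40% in replicate 1 and 0.28% in replicate 2. Bcl2l1-208 held 0.32% and 0%, and Bcl2l1-204, Bcl2l1-205, Bcl2l1-206, Bcl2l1-207 and Bcl2l1-209 were listed at 0% in both. The leading model was the same in both libraries. None of the 9 annotated models was the short death-promoting form BCL-XS, so these tables give no level for it.

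Bbc3 had 3 models. Bbc3-202, an annotated fragment of 485 bases with an incomplete end, held 81.6% of the TPM in replicate 1 and 88.8% in replicate 2. Bbc3-201, the full coding model of 1814 bases, held 18.3% and 10.5%, and the retained-intron model Bbc3-203 held 0.17% and 0.72%. By counts the lead changed between the libraries. Bbc3-201 had 1177 counts in replicate 1 and 1938 in replicate 2, and Bbc3-202 had 1104 and 3370. The annotated fragment ends at position 16313738, upstream of the BH3 codons at chr7:16313764-16313808, so its own counts say nothing about that part of the RNA.

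For the models that led by TPM in Bcl2l1 and Bbc3, the 250 bases before the nearest RefSeq start (GRCm38.p6) are shown, since the transcript shares differed by first exon in both genes. They were searched on both strands for AGATAA (bound by GATA factors), TTCNNNGAA (STAT factors), CACGTG (E-box, bound by MYC among others) and GGGCGG (GC box, SP factors), and capitals mark matches, which can overlap. The Bcl2l1 window, chr2:152831729-152831978 on the minus strand, lies directly before the start of Bcl2l1-201. The Bbc3 window, chr7:16310181-16310430 on the plus strand, ends 24 bases before Bbc3-202.
Bcl2l1: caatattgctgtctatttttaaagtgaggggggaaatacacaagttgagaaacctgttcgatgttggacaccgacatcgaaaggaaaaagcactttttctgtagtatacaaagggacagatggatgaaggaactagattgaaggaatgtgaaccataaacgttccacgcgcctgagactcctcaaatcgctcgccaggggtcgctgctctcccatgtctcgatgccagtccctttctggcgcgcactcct
Bbc3: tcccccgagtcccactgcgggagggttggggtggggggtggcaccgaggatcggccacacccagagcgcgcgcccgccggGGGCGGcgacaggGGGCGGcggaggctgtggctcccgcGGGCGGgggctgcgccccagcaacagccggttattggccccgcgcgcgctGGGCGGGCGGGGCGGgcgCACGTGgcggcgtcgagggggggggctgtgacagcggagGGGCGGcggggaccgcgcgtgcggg

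The Bcl2l1 window held none of the 4 motifs. The Bbc3 window held 1 CACGTG and 7 matches of GGGCGG. Among all 32851 RefSeq windows of this length, 9.99% held AGATAA, 7.02% TTCNNNGAA, 6.02% CACGTG and 32.7% GGGCGG. Of 15 windows of 9 members, 10 held GGGCGG, 2 CACGTG, 1 AGATAA and 0 TTCNNNGAA. Some members had more than 1 window, and windows of Bbc3 overlapped in part, so these are not all separate promoters. By gene, 7 of the 9 members held GGGCGG in any of their windows. The shares over all windows are not a measure for this count, and no share by gene was computed. These are letter matches and no binding was measured.

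The BIM gene Bcl2l11 was spread over several models. Bcl2l11-204, of 110 codons, the length of mouse BIM-S, held 77.1% of the TPM in replicate 1 and 57.1% in replicate 2. The noncoding models Bcl2l11-206 and Bcl2l11-208 held 3.81% and 13.4% in replicate 1 and 27.2% and 13.0% in replicate 2. Bcl2l11-203, the 140 codons of BIM-L, held 5.05% and 0%, and Bcl2l11-205, the 196 codons of BIM-EL, held 0.60% and 0.88%. The short coding model led in both libraries, though Bcl2l11-203 had 280 counts in replicate 1 against 678 for Bcl2l11-204. Bcl2l11-206 and Bcl2l11-208 end at 128130145 and 128130015, upstream of the BH3 codons at chr2:128147141-128147185.

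Bad, Bcl2 and Bid showed shares that moved between the libraries. The incomplete model Bad-204 held 56.7% of the TPM in replicate 1 and 83.7% in replicate 2, and Bad-202 held 30.7% and 8.51%. Bcl2-201, with 2 exons, held 96.3% in replicate 1 and 20.2% in replicate 2, and the single-exon model Bcl2-202 held 3.68% and 79.8%. Behind the Bcl2 shares lay 350 and 5.12 counts in replicate 1 and 78.3 and 119 counts in replicate 2. The spliced Bcl2 model led in replicate 1 and the unspliced model in replicate 2. The retained-intron model Bid-205 held 0.93% and 20.6% of Bid, from 1.03 and 10.9 counts. Bax and Pmaip1 had a single model each.

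**Figure D2:**
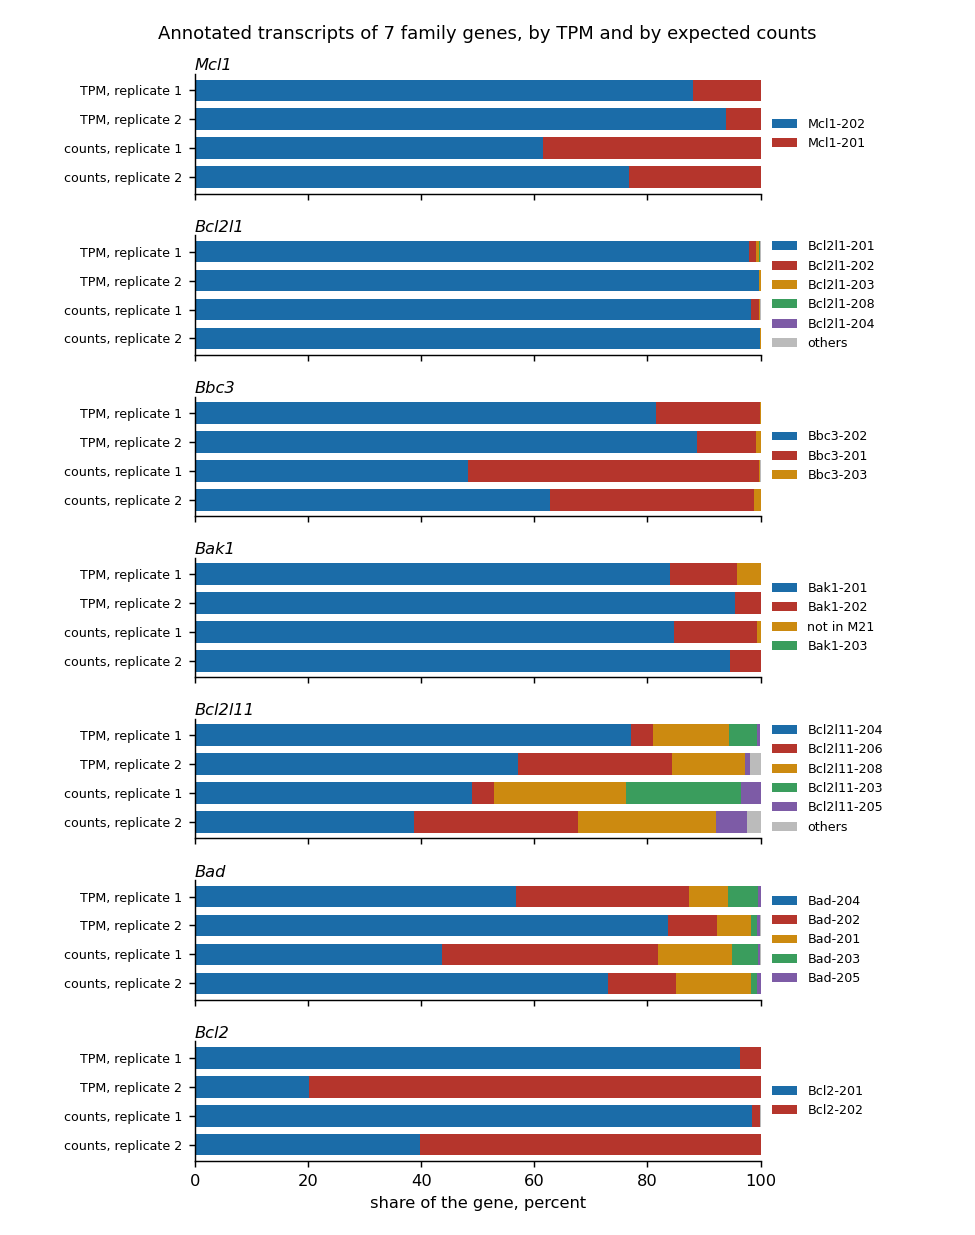
Share of each annotated transcript in its gene, in percent of TPM (upper pair of bars) and of expected counts (lower pair), for replicate 1 above replicate 2. Mcl1-202 and Bbc3-202 take smaller shares by counts than by TPM, Bcl2l1-201 fills its bars, and the Bcl2 bars are reversed between the libraries.

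To remove the effect of short models, every count of a gene was placed on its longest principal coding transcript, giving a length-fixed TPM (an alternative chosen after seeing the data). It kept the scaling factor of the deposited TPM and was not rescaled to the same total. Falls against deposited TPM were therefore not corrected for a change in that total, and genes are best compared within the scale. Mcl1 then had 85.9 TPM in replicate 1 and 149 TPM in replicate 2, and Bbc3 68.8 TPM and 162 TPM. Bak1 had 206 TPM and 97.6 TPM, and Bcl2l1 87.4 TPM and 153 TPM. On this scale Bak1, Bcl2l1, Mcl1, Bax and Bbc3 had means of 152, 120, 117, 115 and 115 TPM, and the ranges of neighbours among these 5 overlapped, so the lead of Mcl1 and Bbc3 was not kept. Bcl2l11 was lowered to a mean of 10.1 TPM and Bad to 36.2 TPM, while Bcl2, at 1.98 TPM, and Pmaip1, at 0.422 TPM, kept the lowest places.

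**Figure D3:**
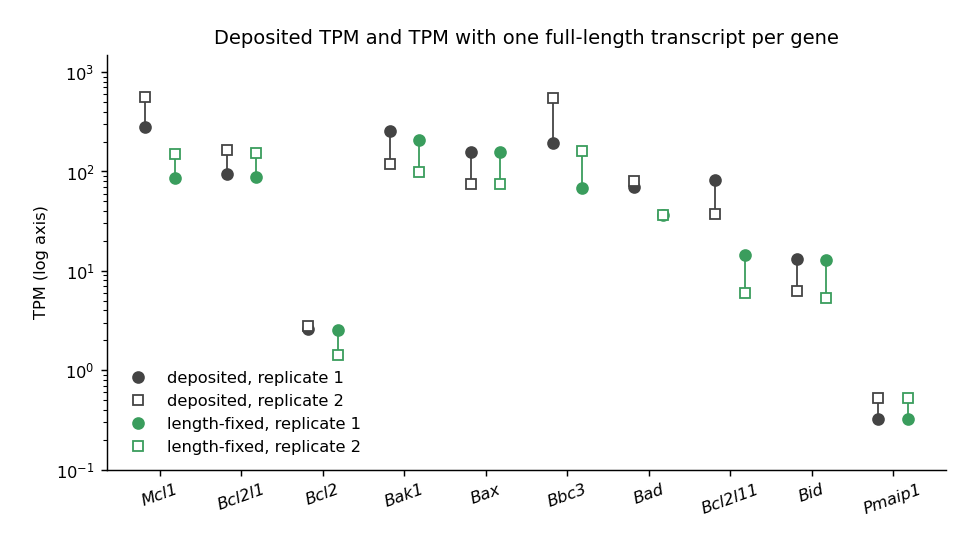
Deposited TPM (grey) beside TPM with each gene's counts on a single full-length coding transcript (green), on a log axis, with circles for replicate 1 and squares for replicate 2. Mcl1, Bbc3, Bcl2l11 and Bad are lower on the length-fixed scale. Bax and Pmaip1, with 1 transcript each, are at the same height on both by construction, since the scaling factor was kept.

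The libraries were then compared gene by gene. The log2 ratio of replicate 1 over replicate 2 was taken from expected counts after TMM scaling, with an exact binomial 95% interval that covers counting error only, and a gene was called apart when the interval lay wholly beyond 2-fold. By this rule 3 of 10 members were higher in replicate 2 and 0 were higher in replicate 1. Of 11708 genes tested, 8.36% were higher in replicate 2 and 14.9% were higher in replicate 1, 23.2% in all. The members' median size of the log2 ratio was 0.79, against 0.74 for all genes tested. The family as a whole was therefore spread between the libraries about as much as other genes. DESeq2 size factors, a minimum of 1 count and a minimum of 100 counts called the same 3 members, against 23.4%, 19.0% and 23.5% of the genes tested. At 1.5-fold 5 members were called, against 41.5% of all genes, and at 4-fold 0, against 4.51%.

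Bbc3, with 2286 counts in replicate 1 and 5367 in replicate 2, had a log2 ratio of -1.70 (interval -1.77 to -1.63), 3.25-fold higher in replicate 2. Bcl2l1, with 4205 and 7372 counts, had -1.28 (-1.34 to -1.23). Mcl1, with 5692 and 9870 counts, had -1.26 (-1.31 to -1.22). These were the 3 called members, and each had more counts in replicate 2 although that library was the smaller.

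The other 7 members were not called. Bid, with 527 counts in replicate 1 and 215 in replicate 2, had a log2 ratio of 0.82 (0.59 to 1.06). Bcl2l11, with 1382 and 585 counts, had 0.77 (0.63 to 0.91). Bax had 0.61 (0.50 to 0.71) and Bak1 0.60 (0.55 to 0.66), the effectors thus lying within each other's intervals. Bcl2, with 355 and 197 counts, had 0.38 (0.12 to 0.64). Bad, with 943 counts in each library, had -0.47 (-0.60 to -0.34), and Pmaip1 -1.15 (-2.17 to -0.22). The interval of Pmaip1 was the widest, from 16 counts in replicate 1 and 26 in replicate 2.

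The ratio also moved with base composition over the whole transcriptome. Across 11680 genes its Pearson correlation with transcript GC content was -0.33, a description over genes that share the same pair of libraries. The median log2 ratio was 1.02 in the bin of lowest GC (up to 40.7%) and -0.82 in the bin of highest GC (from 60.5%). Bbc3, at 65.2% GC, was in the highest bin, Bcl2l1 had 55.9% and Mcl1 48.7%. With the median of each gene's GC bin taken off, Mcl1 had -1.53 and Bcl2l1 -1.15, while Bbc3 had -0.89 and was no longer called. Bax, at 59.2% GC, had 1.18 and was then called higher in replicate 1, and Bad, at 61.3% GC, had 0.34 in place of -0.47. With this step 20.9% of the genes were called in either direction.

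Scaling mattered as well. By total counts, which put the median log2 ratio of all genes at 0.47 instead of 0.06, Bbc3 (-1.30) and Bcl2l11 (1.17) were called, whereas Mcl1 (-0.86) and Bcl2l1 (-0.87) were not, and 26.2% of all genes were. By the ratio of deposited TPM Bak1 (1.10) and Bbc3 (-1.51) were called, beside 28.0% of all genes, and Bcl2 had -0.09 in place of 0.38.

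**Figure D4:**
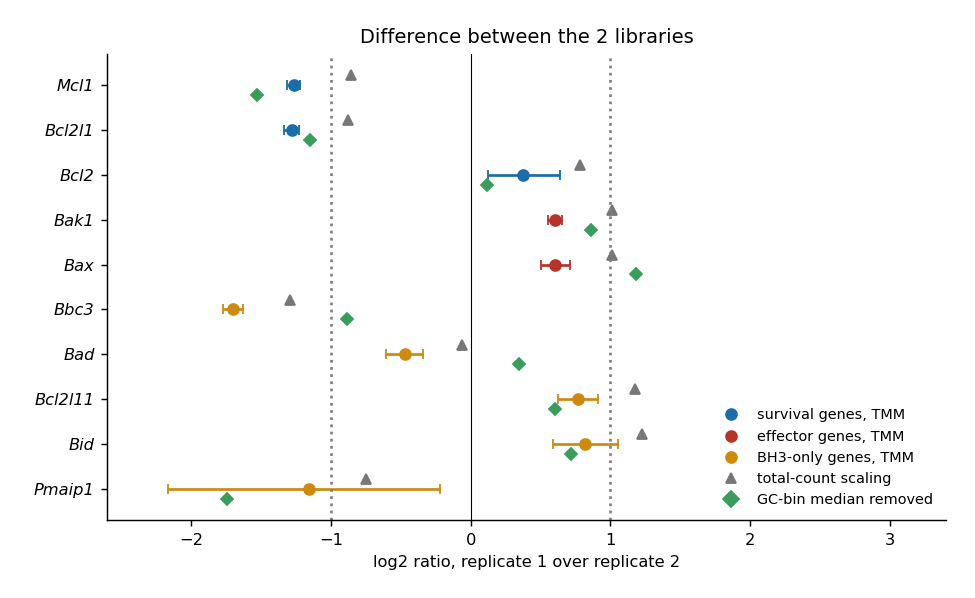
Log2 ratio of replicate 1 over replicate 2 for each family gene, with circles and 95% counting intervals after TMM scaling, triangles after total-count scaling and diamonds after removal of the GC-bin median; dotted lines mark 2-fold. Mcl1 and Bcl2l1 lie left of -1 with and without the GC step, Bbc3 moves to -0.89 with it, and Bax moves to 1.18.

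Summed by role, the balance of the family differed between the libraries. Survival genes summed to 374 TPM in replicate 1 and 732 TPM in replicate 2, which was 32.7% and 45.6% of the family's summed level. The short model Mcl1-202 held 245 TPM and 531 TPM of the survival sums. Effector genes summed to 410 TPM in replicate 1 and 193 TPM in replicate 2, or 35.9% and 12.0%. Bak1-201, annotated as nonsense-mediated decay, held 213 TPM and 113 TPM of the effector sums. BH3-only genes summed to 359 TPM in replicate 1 and 679 TPM in replicate 2, or 31.4% and 42.3%. Bbc3 alone held 194 TPM and 555 TPM of the BH3-only sums, of which 158 TPM and 493 TPM were on Bbc3-202, the fragment that ends before the BH3 codons. Bcl2l11 and Bid were lower in replicate 2, and Bad and Pmaip1 higher by TPM. The survival sum was 0.911 times the effector sum in replicate 1 and 3.80 times in replicate 2. With length-fixed TPM these ratios were 0.486 and 1.76, and with counts 0.896 and 3.21. On each scale the ratio was under 1 in replicate 1 and above 1 in replicate 2. The erythroid and B lineage marker sums were also higher in replicate 1, while the macrophage markers were split, with the C1q genes higher in replicate 2 and Adgre1 and Csf1r higher in replicate 1 by TPM. The part of these cells in this balance was not tested.

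Around the 10 members, 50 genes of the mitochondrial death pathway were examined, and 40 reached 1 TPM in both libraries. Of the 43 with enough counts, 6 were called higher in replicate 1, against 14.9% of all genes tested, and 0 higher in replicate 2, against 8.36%. Their median log2 ratio was 0.08, against 0.06 for all genes. The highest and lowest genes named in each list are those by mean TPM of the libraries.

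Of 15 other BCL2 family genes, 9 reached 1 TPM in both libraries, and of the 9 with enough counts to be tested 0 were called apart. Bcl2l12 had the highest mean level, with 82.3 TPM in replicate 1 and 98.1 TPM in replicate 2. Bnip3l, which encodes the NIX protein that clears mitochondria from maturing red cells, had 97.0 TPM in replicate 1 and 49.7 TPM in replicate 2. The survival gene Bcl2l2 had 15.2 TPM and 17.2 TPM. The other survival genes were near or at 0: in replicate 1 the levels of Bcl2a1a, Bcl2a1b and Bcl2a1d were 0.10, 0.52 and 0.46 TPM, and in replicate 2 they were 0, 0.37 and 0 TPM. Bcl2l10 was listed at 0 in both. Reads cannot be assigned securely among the Bcl2a1 copies, whose sequences are nearly the same. Bmf, a BH3-only gene, had 14.9 TPM in replicate 1 and 22.0 TPM in replicate 2, and Bok, an effector relative, 7.53 TPM and 4.46 TPM.

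Downstream of the pore, 9 of 10 apoptosome and executioner genes reached 1 TPM in both libraries, with a median of 6.24 TPM, and 2 were called higher in replicate 1. Cycs, which encodes cytochrome c and has processed pseudogenes that can share its reads, had 7.73 TPM in replicate 1 and 3.86 TPM in replicate 2 (log2 ratio 2.92). Cycs was thus among the genes called higher in replicate 1. Its partners Apaf1, with 17.1 TPM in replicate 1 and 27.6 TPM in replicate 2, and Casp9, with 36.3 TPM and 29.6 TPM, were not called. Htra2 was the highest of the list, with 115 TPM and 104 TPM, and Aifm1 the lowest, with 2.65 TPM and 1.91 TPM.

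Of the 5 caspase inhibitor genes, 5 were detected and 1 was called. Birc5, which encodes survivin and is tied to cell division, had 108 TPM in replicate 1 and 28.0 TPM in replicate 2 (log2 ratio 1.25), and Birc3 was the lowest with 4.12 TPM and 4.51 TPM. Of 4 genes for mitochondrial docking, Vdac3 was called higher in replicate 1, and Vdac2, whose channel protein binds BAK, had 434 TPM in replicate 1 and 315 TPM in replicate 2. Mtch2, the lowest by mean, encodes the docking protein of BID and had 15.0 TPM and 6.96 TPM.

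Inputs from death receptors were sparser, with 3 of 6 genes detected in both libraries and a median of 2.08 TPM. Tnfrsf1a, the TNF receptor gene, led with 98.8 TPM in replicate 1 and 24.3 TPM in replicate 2, and Fas was the lowest with 0.07 TPM and 0.49 TPM. Cflar, which encodes the caspase-8 inhibitor FLIP, was the called gene among the 5 tested. The 4 genes of MCL1 protein turnover were all detected. Cdc34, a ubiquitin-conjugating enzyme gene, led with 316 TPM in replicate 1 and 303 TPM in replicate 2, Usp9x, the deubiquitinase gene that stabilises MCL1, was the lowest with 4.73 TPM and 2.60 TPM, and Huwe1, an MCL1 ubiquitin ligase gene, was called higher in replicate 1.

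All 6 upstream regulators were detected and 0 were called. Myc led with 492 TPM in replicate 1 and 377 TPM in replicate 2. Foxo3, an activator of Bcl2l11, had 74.3 TPM and 58.1 TPM. The STAT genes that act below the erythropoietin receptor had 24.7 TPM and 30.8 TPM (Stat5a) and 37.3 TPM and 26.5 TPM (Stat5b), and Ddit3 was the lowest by mean, with 25.5 TPM and 25.8 TPM.

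**Figure D5:**
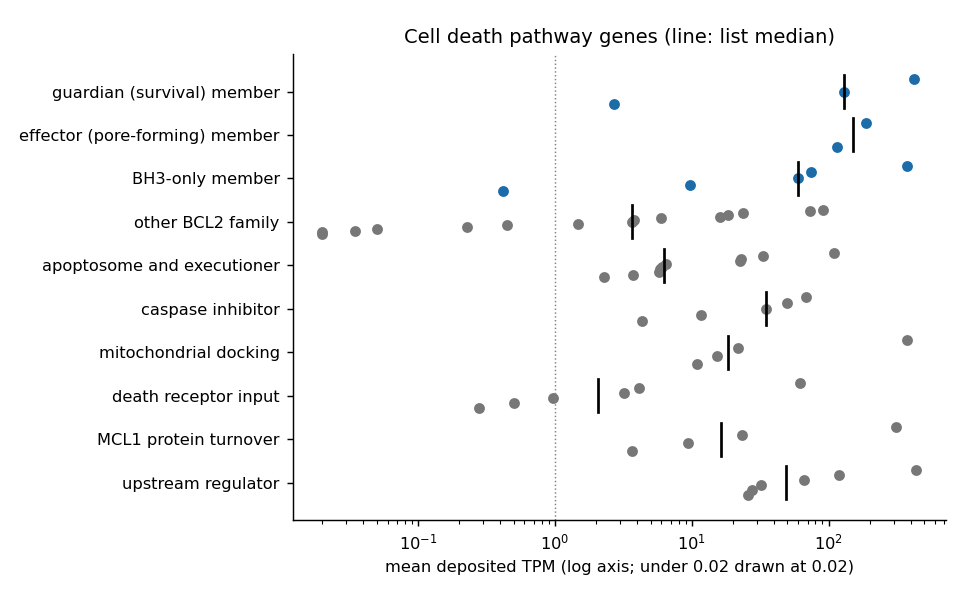
Mean deposited TPM of the 2 libraries for each gene of the pathway lists on a log axis, family members in blue and other lists in grey, with a black line at each list's median. The medians of the survival, effector and BH3-only members, 128, 151 and 60.1 TPM, lie to the right of those of the 7 other lists, which run up to 49.0 TPM. With length-fixed TPM the BH3-only median was the 10.1 TPM of Bcl2l11, and every upstream regulator had a higher mean. The place of the BH3-only median therefore holds for deposited TPM only.

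Some members share their locus with another gene. Bax overlaps the protein-coding gene Gm45808 on the same strand at chr7:45465984-45466898, a span that covers the Bax BH3 codons printed above. No counts were available for Gm45808, and its part in the Bax level was not tested. Bak1 lies within Ggnbp1 on the opposite strand, which had 74.9 counts in replicate 1 and 97.0 in replicate 2. The end of Bid overlaps Bcl2l13 on the opposite strand, with 3302 and 3036 counts, and the start of Bad overlaps Gpr137, with 1173 and 1110 counts. The Bid overlap ends at 120892842, and only the model Bid-204, with 0 counts in both libraries, reaches it. Bid-201, with 99.8% of Bid counts in replicate 1 and 94.9% in replicate 2, starts at 120892854. Whether the authors counted by strand is not given in the sources used here, so reads in the overlap are uncertain for Bad.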

How the data were processed

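Gene and transcript tables of 2 libraries were used. The authors made them on mm10 with GENCODE M4, per the file headers and readme. Which aligner and program they ran is not given in the sources used here. Values as deposited are expected counts (estimated fragments, not normalised), TPM and FPKM, and a percent giving each transcript's share of its gene's TPM. All 10 members had whole counts in both libraries (within 0.005).

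Symbols, transcripts and coordinates came from GENCODE M21 of the same assembly (42462 of 43346 identifiers matched), and promoters from RefSeq. Expected counts were rounded; edgeR 4.0.16 in R 4.3.3 gave TMM factors and, from an intercept-only design, a common coefficient of variation of 0.562, and DESeq2 1.42.0 alternative size factors. Ratios used a prior count of 0.5, and genes with 20 or more counts over both libraries were tested. The criterion was tried on simulated counts with counting error only and large planted changes. That setting lacks the spread between these libraries, so it gives no rate of false calls for them. Detection meant 1 TPM. The length-fixed TPM and the removal of the median ratio in 20 GC bins were added after seeing the data. Other alternatives were FPKM, posterior mean TPM, other thresholds and scalings, and leaving out a gene or a library. Named genes were all members and, of each pathway list, the highest, the lowest and some set by name; Vdac3, Cflar and Huwe1 were named after their values were seen. A gene that the rule names is not reported here. The members and lists were chosen with earlier results of these data known. Scripts ran in Python 3.11.15 with pandas 2.3.3 and scipy 1.17.1.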

Additional observations from a re-analysis of the deposited data

How the results depend on the processing

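The survival genes held 39.2% of the family's summed TPM as a mean of the libraries, and this was 13.6% with Mcl1 left out and 54.6% with Bbc3 left out. The BH3-only share of 36.9% was 21.5% by expected counts, 25.2% with length-fixed TPM, 53.5% without Mcl1 and 14.6% without Bbc3. The effector share of 24.0% was 39.6% with length-fixed TPM (54.0% in replicate 1 and 25.1% in replicate 2), which made it the largest by mean, and 11.3% without Bak1. With either library alone, the survival share lay between 32.7% and 45.6%, the effector share between 12.0% and 35.9% and the BH3-only share between 31.4% and 42.3%. The number of members called apart was 3 at 2-fold, 5 at 1.5-fold (41.5% of all genes tested) and 0 at 4-fold (4.51%). DESeq2 size factors and minimums of 1 and 100 counts gave the same 3 members. Of the pathway genes, 4 of 10 apoptosome genes, 5 of 15 other family genes and 1 of 6 death receptor genes reached 5 TPM in both libraries, against 9, 9 and 3 at 1 TPM. The cause of these changes was not tested.

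No paired analysis was possible because the series holds 1 group. With 2 libraries a range is the whole spread, and the common coefficient of variation of 0.562 between them limits any statement on a single gene. Pmaip1, with 16 and 26 counts in replicates 1 and 2, and the Bid-205 shares rest on few counts. The Bcl2-202 shares came from 5.12 counts in replicate 1 and 119 in replicate 2. Transcript shares depend on annotated models and on reads that several models share.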

Other observations

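The count ratio and the deposited TPM ratio of the same gene could differ, and 2 pathway genes, chosen after their values were seen, show it. Cycs had a log2 ratio of replicate 1 over replicate 2 of 2.92 by counts and 1.00 by TPM. Birc6, which encodes a large caspase inhibitor, had 1.09 by counts and 0.29 by TPM. Among the family members the corresponding values were -1.28 and -0.80 for Bcl2l1 and 0.60 and 1.10 for Bak1. The median log2 ratio of all genes tested was 0.06 by TMM-scaled counts and 0.44 by TPM.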
